A study of Mus musculus with 12 samples.

Results

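The 7 sirtuin genes, Sirt1 to Sirt7, were followed in mouse lung over 4 ages. They were taken by symbol from the deposited table of read counts, in which they are 7 of 55487 genes, and all 7 passed the filter on low counts. Whole lungs came from C57BL/6NCr mice, a C57BL/6 substrain, aged 6, 12, 20 or 30 months (written 6M, 12M, 20M and 30M), and the question is which genes change as the lung ages. There were 3 libraries of poly-A selected RNA per age, named here by age and replicate number. The labels name no treatment, transgene or sex. They also do not say that every library came from its own mouse, and p-values therefore speak only of how these libraries scatter, part of which may be technical. All ages are whole-tissue RNA, in which fewer cells of a type and less RNA per cell cannot be told apart.

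Sirtuins are enzymes that remove acetyl or longer acyl groups from lysines of proteins and split one molecule of NAD+ for each group removed, which ties their activity to the supply of that cofactor. SIRT1, SIRT6 and SIRT7 are mainly nuclear, SIRT2 is mainly cytosolic, and SIRT3, SIRT4 and SIRT5 are found in mitochondria. The family is widely studied in ageing, where its activity depends on NAD+ and protein level as well as on the transcript measured here.

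Libraries held 12152066 to 15058628 counts, 18407 genes were tested, and the labelled tissue carried its markers. The summed level of 6 alveolar type 2 markers was 18139 to 34772 CPM (read counts scaled to library size, with TMM factors) in all 12 libraries. Some libraries stood apart. In 20M_221, 20M_222 and 30M_220 expression relative to the 6M mean followed gene GC content across genes (Spearman rho = 0.358, 0.465 and 0.328), against -0.0868 to 0.230 in the other 9, the highest of these being 12M_208. Chi-square per gene between 12M_208 and the other 12M libraries was 38.0 and 32.4, against 13.1 between those 2, while it was 6.79 to 12.0 within 6M, 23.9 to 44.1 within 20M and 24.1 to 53.0 within 30M. The same 3 libraries had the lowest sums of 6 alveolar type 1 markers (3356 to 3881 CPM, against 4288 to 6386 in the other 9) and of the type 2 markers (18139 to 21021, against 26797 to 34772). The largest part of the type 2 sum was Sftpc (10377 to 12575 CPM, against 19003 to 23834). Sftpb was not low in these 3 (3069 to 3442 CPM, against 2472 to 3805 in the other 9). Together with 12M_208 these 3 libraries had the 4 highest sums of 6 endothelial markers (2748 to 3204 CPM, against 1841 to 2338 in the other 8). Cdh5 and Tie1 each had their 4 highest values in these libraries. Not every marker followed: Egfl7 was at its lowest in 12M_208 (164 CPM), and Kdr in 20M_222 (251 CPM) lay below 6M_201 (363 CPM). 20M_222 held skeletal muscle RNA, with 8 markers summing to 3184 CPM against at most 41.6 elsewhere. In 30M_220 the 6 cardiac muscle markers summed to 1506 CPM against 287 to 913 elsewhere, though Tnni3 and Myl7 of these were higher in 12M_208. The 6 leukocyte markers, all detected in all libraries, summed to 565 to 814 CPM at 6M, 794 to 873 at 12M, 639 to 948 at 20M and 1263 to 1511 at 30M. The part of these differences in the values below was not tested, except where a value without those libraries is given.

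Stretches before the RefSeq starts of Sirt1 and Sirt7 are shown because the 3 libraries with the lowest Sirt1 below were those with the highest Sirt7. Over all 12 libraries this pair had r = -0.13 (log2 CPM) and a Spearman rho of -0.41. The sign of r depended on the libraries, being 0.63 without those 3 and -0.60 without 12M_208. The stretches come from RefSeq (GRCm38.p6), which has 9 windows for the 7 genes, each with 250 bases before and 50 after a transcription start. Both lie on the minus strand, are written 5′ to 3′, and are cut to the bases outside annotated untranslated regions and outside the neighbouring gene Mafg. They hold 235 bases for Sirt1 (chr10:63339051-63339285) and 102 for Sirt7 (chr11:120625015-120625116). Both lie inside the gene spans of the count table given below, which follow longer annotated transcripts that begin further upstream. Capitals mark the E-box CACGTG, a site of basic helix-loop-helix factors, and the ETS core CCGGAAG, a site of ETS factors, both searched on both strands.
Sirt1: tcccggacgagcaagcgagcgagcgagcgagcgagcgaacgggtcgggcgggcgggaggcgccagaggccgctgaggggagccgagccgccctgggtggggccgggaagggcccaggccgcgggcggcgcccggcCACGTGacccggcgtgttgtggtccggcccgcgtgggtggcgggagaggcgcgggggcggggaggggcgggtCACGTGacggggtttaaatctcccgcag
Sirt7: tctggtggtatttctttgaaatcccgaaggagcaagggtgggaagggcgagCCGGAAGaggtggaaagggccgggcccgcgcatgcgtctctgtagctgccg
The E-box letters occurred 2 times in the Sirt1 window and in none of the other 8 sirtuin windows, while 7.15% of all 32851 windows hold them. The ETS core occurred 2 times in the whole Sirt7 window, 1 of them in the stretch shown, and in 3 of the 9 sirtuin windows (Sirt7 and 1 window each of Sirt3 and Sirt6), against 8.86% of all windows. The SP1 box GGGCGG was in 6 of the 9 windows, against 35.7% of all, with 7 copies at Sirt1. The TATA box TATAAA was in 0 of the 9, against 13.6%. The whole Sirt1 window is 79.0% G and C, more than 98.6% of all windows, and that of Sirt7 is 51.3%. These matches describe letters, and binding was not measured.

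Per kilobase of exon, Sirt2 was the most abundant sirtuin transcript and Sirt5 the least, in 12 of 12 libraries. Sirt2 stood at 16.4 ± 1.66 CPM per kilobase (mean and SD over 12 libraries), Sirt7 at 11.7 ± 2.45 and Sirt1 at 7.61 ± 1.49. Below these came Sirt4 at 5.55 ± 1.64 CPM per kilobase, Sirt6 at 3.71 ± 1.002, Sirt3 at 2.89 ± 0.338 and Sirt5 at 1.84 ± 0.268. Of the mitochondrial members, the lipoamidase gene Sirt4 thus lay above Sirt3 and Sirt5. By age the mean order was the same at 6M, 12M and 30M, and at 20M Sirt4 lay above Sirt1.

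Neighbours in this order were compared within libraries. Sirt2 was above Sirt7 in 12 of 12 libraries, with a log2 ratio per length of 0.52 ± 0.44 (SD). Sirt7 was above Sirt1 in 11 (0.61 ± 0.50), the exception being 12M_208. Sirt1 was above Sirt4 in 9 (0.51 ± 0.66), not in 20M_221, 20M_222 and 30M_220, so these neighbours did not differ beyond their spread. Sirt4 was above Sirt6 in 11 (0.54 ± 0.41) and Sirt6 above Sirt3 in 11 (0.33 ± 0.32), the ratio of the latter pair being about as large as its SD. Sirt3 was above Sirt5 in 12 (0.66 ± 0.25). These values divide by all annotated exons of GENCODE M21, and with the longest transcript in their place Sirt2 came to 39.0 ± 3.95 CPM per kilobase. On that scale the mean order of the 7 was the same, but Sirt6 was above Sirt3 in 6 of 12 libraries and Sirt3 above Sirt5 in 9.

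**Figure D1:**
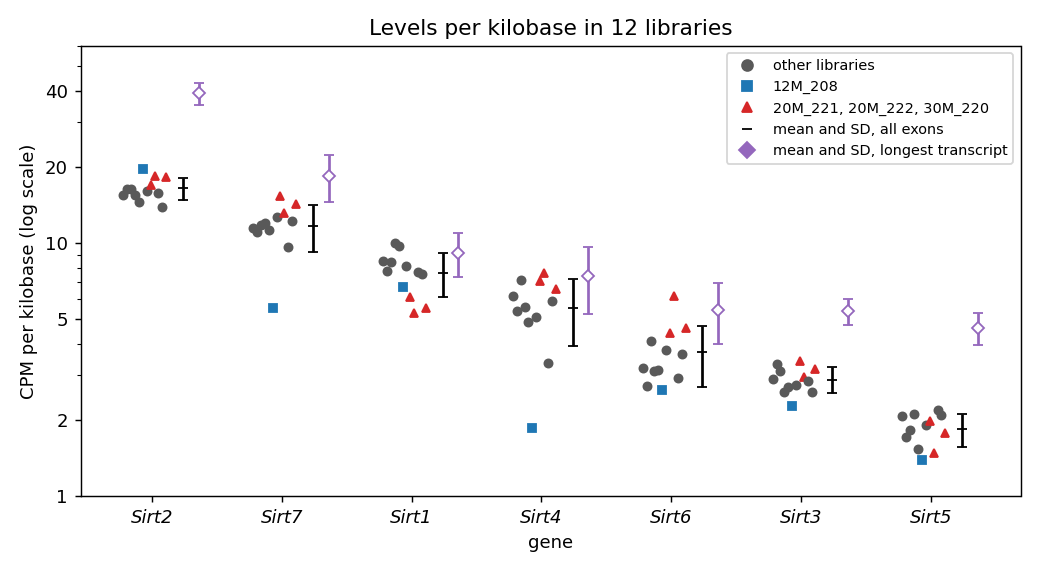
Level of each sirtuin in CPM per kilobase of exon (log axis) in each of 12 libraries, with the mean and SD over libraries in black and the mean and SD per kilobase of the longest transcript as open diamonds. Sirt2 is highest and Sirt5 lowest in 12 of 12 libraries, and the blue square of 12M_208 lies lowest for 5 of the 7 genes.

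Among the nuclear members, Sirt1 (ENSMUSG00000020063, chromosome 10, 63319005 to 63381704, minus strand) encodes the deacetylase of histones, p53 and FOXO factors. It was at 45.2, 41.3 and 44.9 CPM at 6M, 53.3, 51.7 and 35.7 at 12M, 43.1, 32.7 and 28.2 at 20M and 40.8, 40.2 and 29.6 at 30M. The 3 values at 30M all lay below those at 6M, the nearest being 40.8 against 41.3 CPM, and 30M_220 was well below the other 30M libraries. The 2 highest values were both at 12M. Means were 43.8 ± 2.16 at 6M and 36.9 ± 6.29 CPM at 30M (SD, n = 3), a difference that was not called by edgeR's quasi-likelihood test (log2 fold change -0.25, SE 0.19, 95% interval -0.67 to 0.17, adjusted p = 0.729). It was -0.18 with each library's GC trend removed, -0.10 with a term for the 3 libraries that followed gene GC content and -0.11 without them. The lowest 3 values were those of these libraries, 20M_222, 30M_220 and 20M_221, and the next lowest that of 12M_208. These are also the libraries with the highest endothelial marker sums, and the first 3 those with the lowest alveolar sums, whose part in the result was not tested. The longest Sirt1 transcript is 44.0% G and C against a median of 49.7% over tested genes.

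Sirt6 (ENSMUSG00000034748, chromosome 10, 81621785 to 81627797, minus strand), whose product deacetylates histone H3 at telomeres and sites of DNA repair, was at 8.96, 7.59 and 11.4 CPM at 6M, 8.71, 8.76 and 7.35 at 12M, 10.5, 12.3 and 17.1 at 20M and 8.14, 10.2 and 12.8 at 30M. 20M_222 stood apart at 17.1 CPM, the next highest library being 30M_220 at 12.8 CPM. At 20M against 6M the groups overlapped and the mean went from 9.32 ± 1.93 to 13.3 ± 3.41 CPM without a call (log2 fold change 0.52, SE 0.24, 95% interval 0.00 to 1.03, adjusted p = 0.638). It was 0.29 without 20M_222 and 0.31 with each library's GC trend removed. With a term for the 3 libraries that followed gene GC content it was 0.18, and 0.17 without them. As 20M_221 and 20M_222 are among those 3, the term overlaps with the 20M age. The value without them rests on 20M_213 as the lone 20M library. The gene had 87 to 232 counts per library. At 30M against 6M the difference was smaller (log2 fold change 0.16, 95% interval -0.36 to 0.67). It was 0.05 with each library's GC trend removed and -0.03 without those 3 libraries. The longest Sirt6 transcript has the highest GC content of the family, 58.4%.

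Sirt7 (ENSMUSG00000025138, chromosome 11, 120618372 to 120625240, minus strand), whose nucleolar product acts on ribosomal RNA gene transcription, was at 58.9, 57.1 and 60.7 CPM at 6M, 61.6, 58.0 and 28.6 at 12M, 65.1, 79.3 and 67.4 at 20M and 49.4, 62.7 and 73.5 at 30M. The 6M libraries were close together, and 12M_208 had 28.6 CPM against 58.0 and 61.6 in the other 12M libraries. The 3 values at 20M did not overlap those at 6M, yet the difference from 6M was not called at 20M (log2 fold change 0.26, SE 0.23, 95% interval -0.24 to 0.77, adjusted p = 0.728) or at 30M (log2 fold change 0.07, 95% interval -0.44 to 0.58). The 20M value was 0.12 with each library's GC trend removed, 0.07 with a term for the 3 libraries that followed gene GC content and 0.14 without them. As 20M_221 and 20M_222 are among those 3, the term overlaps with the 20M age. The value without them rests on 20M_213 as the lone 20M library. The gene shares 124 exon bases with Mafg on the same strand, so that part of its counts is uncertain.

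The cytosolic member Sirt2 (ENSMUSG00000015149, chromosome 7, 28766735 to 28788661, plus strand), a deacetylase of tubulin and other proteins, was at 78.1, 82.4 and 82.1 CPM at 6M, 78.0, 73.0 and 98.9 at 12M, 80.5, 85.5 and 92.4 at 20M and 79.6, 69.7 and 91.9 at 30M. Values ran over 1.42-fold between the lowest and the highest library, the narrowest range of the 7. The highest was 12M_208, in which 5 other sirtuins were at their lowest. The mean was 80.8 ± 2.40 CPM at 6M and 80.4 ± 11.1 at 30M, and the 95% interval of the log2 fold change, -0.31 to 0.30, was the narrowest of the family (adjusted p = 0.993, edgeR).

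Among the mitochondrial members, Sirt3 (ENSMUSG00000025486, chromosome 7, 140863666 to 140882309, minus strand), the main deacetylase of the mitochondrial matrix, was at 17.4, 19.8 and 18.7 CPM at 6M, 15.5, 16.2 and 13.5 at 12M, 16.4, 20.5 and 17.7 at 20M and 17.0, 15.4 and 19.0 at 30M. The 12M values lay below all 6M values, with means of 18.6 ± 1.21 and 15.1 ± 1.38 CPM, and this was not called (log2 fold change -0.31, SE 0.15, 95% interval -0.64 to 0.03, adjusted p = 0.988). At 30M the groups overlapped those of 6M (log2 fold change -0.12, 95% interval -0.45 to 0.21). Exons of Ric8a and Psmd13 on the opposite strand cover 418 and 342 of its 5973 exon bases, and reads from those genes cannot be told apart, the strand setting of the counting not being given in the sources used here.

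Sirt4 (ENSMUSG00000029524, chromosome 5, 115478010 to 115484725, minus strand), whose product removes lipoyl groups from the pyruvate dehydrogenase complex, was at 14.8, 12.9 and 17.1 CPM at 6M, 13.4, 11.7 and 4.48 at 12M, 12.2, 17.0 and 18.2 at 20M and 8.06, 14.2 and 15.7 at 30M. It varied most of the family, 4.07-fold between libraries, and 12M_208 was lowest with 53 counts (95% exact Poisson interval 39.7 to 69.3, counting error only) against 178 and 139 in the other 12M libraries. Without 12M_208 the range was 2.26-fold. 30M_216 was the next lowest at 8.06 CPM. The mean went from 14.9 ± 2.09 CPM at 6M to 12.7 ± 4.05 at 30M (log2 fold change -0.23, SE 0.35, 95% interval -0.98 to 0.51, adjusted p = 0.897), and without 30M_216 the log2 fold change was -0.00108.

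Sirt5 (ENSMUSG00000054021, chromosome 13, 43365496 to 43395203, plus strand), which removes succinyl, malonyl and glutaryl groups, was at 12.7, 10.4 and 11.2 CPM at 6M, 12.8, 9.35 and 8.45 at 12M, 11.7, 12.1 and 9.01 at 20M and 13.3, 12.7 and 10.8 at 30M. The ages overlapped in all 6 pairs. The mean was 11.4 ± 1.17 CPM at 6M and 12.3 ± 1.31 at 30M (log2 fold change 0.10, SE 0.20, 95% interval -0.33 to 0.54, adjusted p = 0.924).

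**Figure D2:**
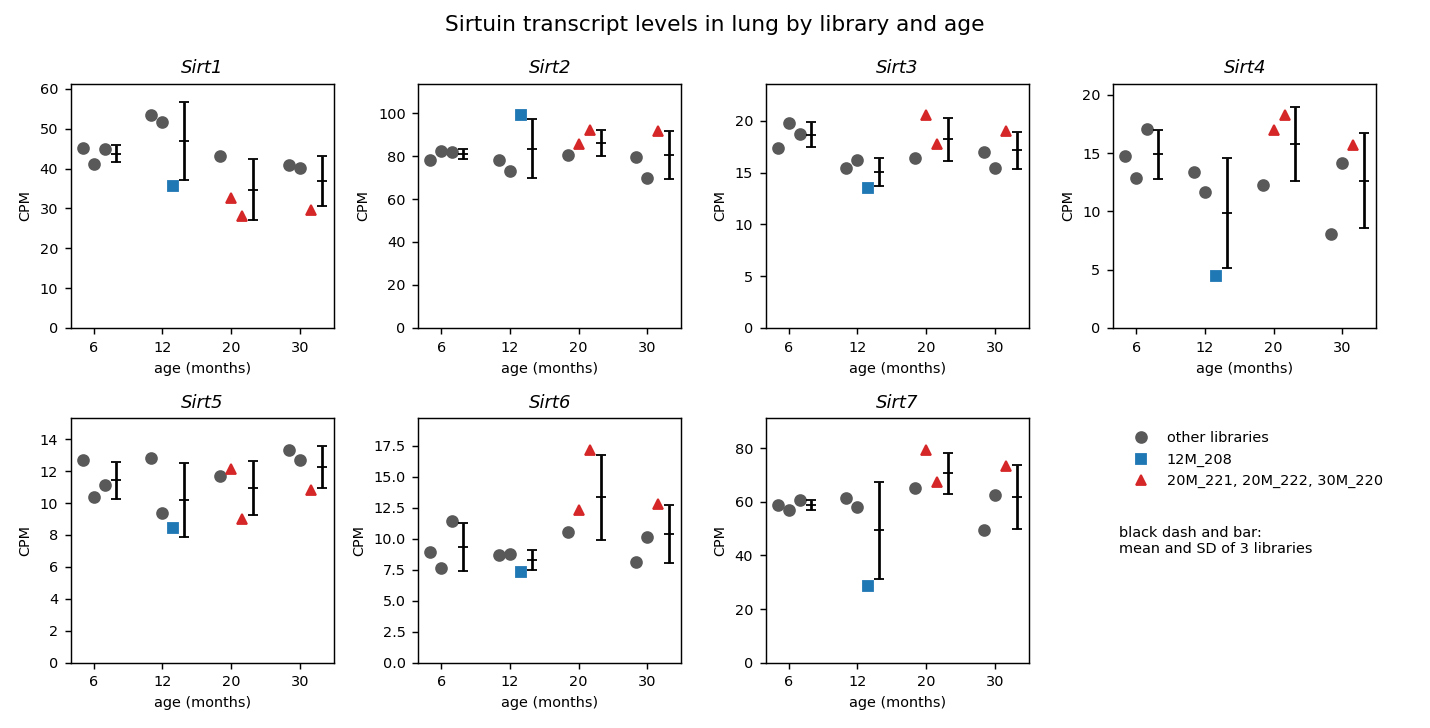
CPM of the 7 sirtuins in each library by age in months, each panel on its own axis from 0, with black bars for the mean and SD of 3 libraries. The blue square (12M_208) is lowest for Sirt3, Sirt4, Sirt5, Sirt6 and Sirt7 and highest for Sirt2, and the red triangles (20M_221, 20M_222 and 30M_220) are the 3 lowest values of Sirt1.

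No sirtuin was called between any 2 ages, in the joint test over ages or for a slope on months. The test was edgeR's quasi-likelihood test over 18407 genes, a gene being called at a Benjamini-Hochberg adjusted p under 0.05. At 30M against 6M 0 of 7 were called, against 1.96% of all tested genes, and 0 had an unadjusted p under 0.05, against 11.6%. The 7 log2 fold changes had a median of -0.01 (0.00 over all tested genes), 3 of them above and 4 below 0, and adjusted p = 0.729 to 0.993. The intervals in that comparison reached down to -0.98 (Sirt4) and up to 0.67 (Sirt6). Log2 fold changes within a member's own interval were therefore not excluded for that member with this depth and spread. In 1 of 7 members, Sirt1, the libraries of these ages did not overlap, against 18.6% of all tested genes.

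The other comparisons also gave 0 of 7. The share of all tested genes called was 0.0163% at 20M against 6M, 0% at 12M against 6M and at 20M against 12M, 0.712% at 30M against 12M and 0.212% at 30M against 20M. It was 1.11% in the joint test and 2.68% for the slope. Groups that did not overlap were found for 1 member at 20M against 6M (Sirt7, 15.4% of all tested genes), 1 at 12M against 6M (Sirt3, 12.1%), 3 at 20M against 12M (Sirt3, Sirt6 and Sirt7, 15%), and 0 at 30M against 12M (13.2%) and 30M against 20M (10.8%). An unadjusted p under 0.05 was found for 1 member at 20M against 6M (Sirt6, 7.8% of all tested genes) and for 0 at 12M against 6M (3.6%), 30M against 12M (10.9%), 30M against 20M (8.89%), in the joint test (11.2%) and for the slope (13.3%). The smallest adjusted p of a sirtuin in this edgeR fit of all 12 libraries was 0.429, that of Sirt6 at 20M against 12M. At 20M against 12M 3 members had an unadjusted p under 0.05, against 11.2% of all genes. Sirt6 was higher at 20M by 0.69 ± 0.24 (log2, SE), Sirt7 higher by 0.51 ± 0.24 and Sirt1 lower, with a log2 fold change of -0.44 ± 0.19. With each library's GC trend removed these were 0.49, 0.37 and -0.36. Without the 3 libraries that followed gene GC content they were 0.35, 0.40 and -0.12, the lone 20M library left being assumed to vary like the others. Without 12M_208 they were 0.60, 0.23 and -0.60.

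Other tools gave the same counts save one. DESeq2 called 0 of 7 sirtuins in each of the 8 tests, in which it called 9 to 900 of 18407 genes. Limma voom with sample quality weights called Sirt1 in the joint test over ages (adjusted p = 0.0393, against 0.578 by edgeR). In that test it called 1590 of 18407 genes (8.64%), against 205 by edgeR. Its smallest adjusted p of a sirtuin was 0.0559 at 20M against 12M and 0.0715 at 20M against 6M, just short of a call. Slopes per month were -0.0147 ± 0.00785 log2 units (SE) for Sirt1 and 0.0141 ± 0.0112 for Sirt6, the steepest in either direction (adjusted p = 0.461 and 0.674, edgeR). With a term for the 3 libraries that followed gene GC content they were -0.00577 and 0.000322, and the steepest were those of Sirt4 and Sirt5 (-0.0133 and 0.00907). Without those libraries these 4 slopes were, in the same order, -0.00588, 0.00220, -0.0131 and 0.00965. With each library's GC trend removed they were -0.0115, 0.00783, -0.00419 and 0.00735, those of Sirt1 and Sirt6 again being the steepest.

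**Figure D3:**
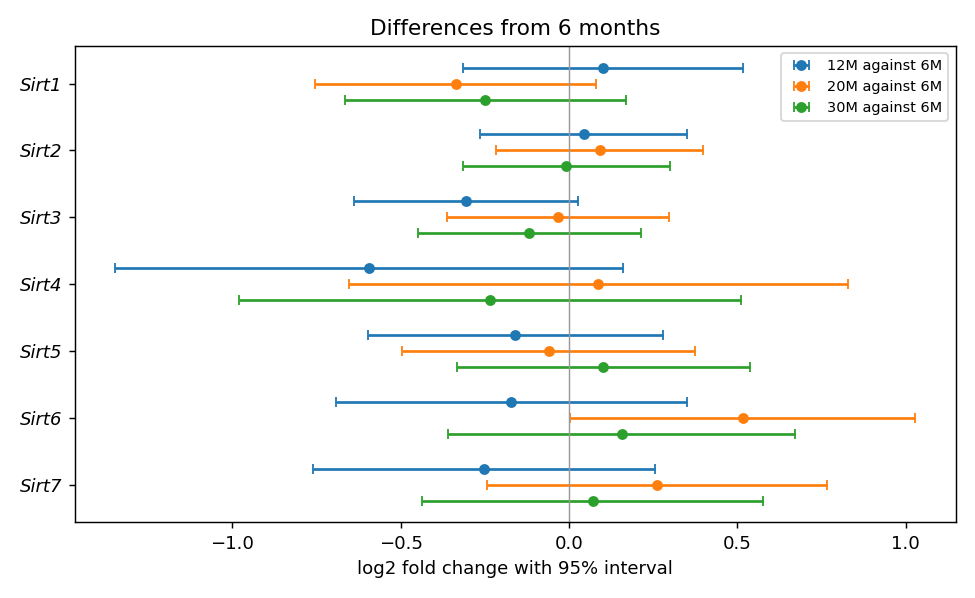
Log2 fold change from 6M of each sirtuin at 12M, 20M and 30M, with 95% intervals from the edgeR fit. Of 21 intervals 20 include 0, that of Sirt6 at 20M starting just above it, and none of the 21 is called after adjustment over 18407 genes.

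Several sirtuins had their lowest or highest values in the same libraries. 12M_208 held the lowest value of 5 of 7 sirtuins, while 18.7% of all tested genes had their lowest value there. Against the mean of the other 12M libraries, on the log2 CPM scale, Sirt4 was at -1.45 and Sirt7 at -1.06. Only 3.47% and 6.71% of tested genes were further down. The others lay further inside the range of all tested genes. Sirt1 was at -0.55 (17.0% of tested genes further down), Sirt5 at -0.37 (24.9%), Sirt6 at -0.24 (32.0%), Sirt3 at -0.22 (33.3%) and Sirt2 at 0.39 (80.8%).

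In a fit with a term for 20M_221, 20M_222 and 30M_220 that term, a description of those libraries, was -0.48 ± 0.15 (log2, SE) for Sirt1 and -0.21 ± 0.20 for Sirt5. It was above 0 for the other 5, at 0.51 ± 0.35 for Sirt4, 0.48 ± 0.21 for Sirt6 and 0.28 ± 0.24 for Sirt7, with 0.22 ± 0.12 for Sirt2 and 0.23 ± 0.14 for Sirt3. Of all tested genes 13.5% had a lower term than Sirt1 and 84.6% a lower term than Sirt4, the other members lying between. The GC content of the longest transcript was 44.0% for Sirt1, 46.4% for Sirt3 and 47.4% for Sirt5, and 53.5% to 58.4% for the other 4. Sirt3 thus had a term above 0 with a GC content below the median of tested genes.

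**Figure D4:**
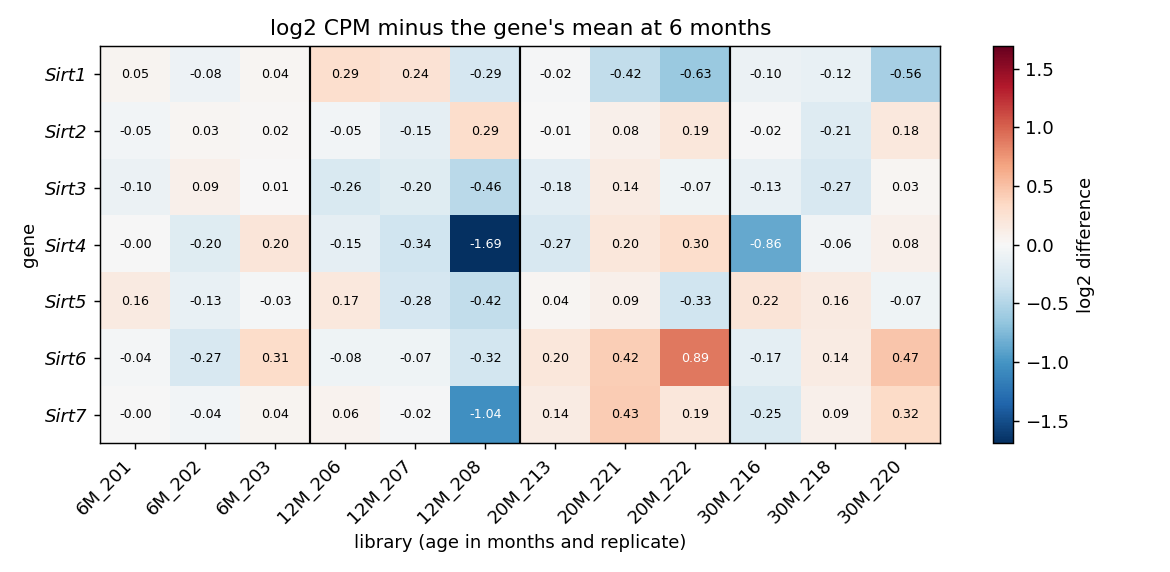
Log2 CPM of each sirtuin in each library minus its mean at 6M, with vertical lines between ages. The column of 12M_208 reaches -1.69 for Sirt4 and -1.04 for Sirt7 beside 0.29 for Sirt2, and 20M_221, 20M_222 and 30M_220 are at -0.42, -0.63 and -0.56 for Sirt1.

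Across libraries Sirt4 and Sirt7 had the highest Pearson's r of the 21 pairs of sirtuins, and Sirt1 and Sirt2 the most negative. Sirt4 and Sirt7 had r = 0.93 over 12 libraries (log2 CPM), 0.93 without the 3 libraries that followed gene GC content, and 0.76 without 12M_208. By Spearman's rho Sirt4 and Sirt7 (0.73) came after Sirt6 and Sirt7 (0.89) and Sirt4 and Sirt6 (0.84). Sirt1 and Sirt2 went against each other, with r = -0.71, which was -0.55 without those 3 libraries and -0.76 without 12M_208. In neither subset was this pair the most negative. That was Sirt2 and Sirt7 without those 3 libraries (-0.82) and Sirt1 and Sirt6 without 12M_208 (-0.78). The log2 ratio per length of Sirt2 over Sirt1 was 0.97 ± 0.10 at 6M, 0.92 ± 0.55 at 12M, 1.42 ± 0.41 at 20M and 1.21 ± 0.44 at 30M (SD, n = 3). It was highest in 20M_222, 30M_220, 12M_208 and 20M_221, at 1.79, 1.72, 1.55 and 1.47. The sign of other pairs depended on the libraries: Sirt2 and Sirt7 had r = -0.31 over 12 libraries, -0.82 without those 3 and 0.51 without 12M_208. The points share depth, scaling and the GC trends given above, so these r are descriptions.

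**Figure D5:**
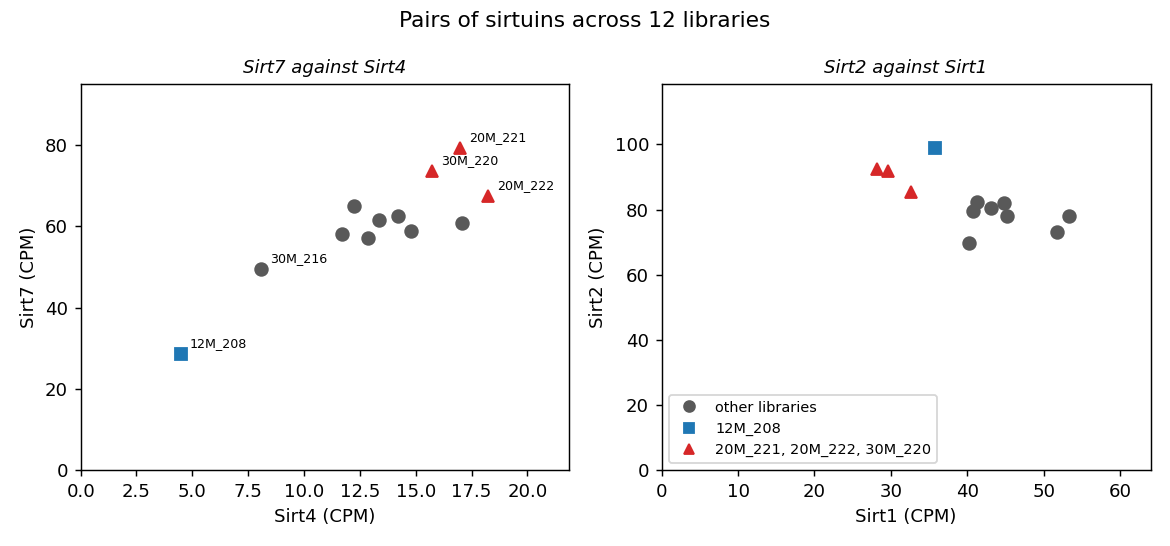
Sirt7 against Sirt4 and Sirt2 against Sirt1, in CPM, 1 point per library, both axes from 0. In the left panel 12M_208 and 30M_216 are lowest for both genes, and in the right panel 12M_208 and the red triangles have the 4 lowest values of Sirt1 and the 4 highest of Sirt2.

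The transcripts whose levels were most like each sirtuin were found by Pearson's r of log2 CPM over 12 libraries among all tested genes, predicted genes left out, and r without 12M_208 is given second. For Sirt1 these were Syncrip (r = 0.97, 0.97) and Heca (r = 0.96, 0.97). For Sirt6 they were Zbtb17 (r = 0.94, 0.93) and Tmem259 (r = 0.93, 0.91), and for Sirt7 Snrnp70 (r = 0.98, 0.98) and Fam193b (r = 0.98, 0.93). Snrnp70 encodes a protein of the U1 small nuclear ribonucleoprotein. For Sirt2 they were Ston1 (r = 0.96, 0.95) and Kbtbd11 (r = 0.96, 0.93). For the mitochondrial members they were Dhx16 (r = 0.92, 0.86) and Ccdc9b (r = 0.91, 0.85) for Sirt3, Mcoln1 (r = 0.98, 0.95) and Masp2 (r = 0.98, 0.92) for Sirt4 and Trim12a (r = 0.97, 0.95) and Trim34a (r = 0.92, 0.88) for Sirt5. Mcoln1 encodes a lysosomal cation channel, and Trim12a and Trim34a are tripartite motif genes that have close paralogs, which makes their counts uncertain. Without the 3 libraries that followed gene GC content the 14 values of r ran from 0.795 to 0.986. Such r are the highest of many and have no test.

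Genes beside the sirtuins gave further values for 12M_208. Pcyt2, an enzyme of phosphatidylethanolamine synthesis that lies 436 bases from Sirt7 on the same strand, was at 31.6 CPM there and at 51.9 and 54.2 in the other 12M libraries. Its r with Sirt7 was 0.93 over 12 libraries and 0.71 without 12M_208. Mafg, a small Maf factor on the other side, was at 62.9 CPM against 80.1 and 106 (r = 0.86, and 0.67 without 12M_208). Ankrd24, 743 bases from Sirt6 on the opposite strand, was at 4.31 CPM against 9.39 and 10.6 (r = 0.69 with Sirt6, and 0.70 without 12M_208). The other 5 tested neighbours or overlapping genes were not low in 12M_208. Psmd13 was at its highest there, at 124 CPM against 107 and 106 in the other 12M libraries, and Dnajc12 was at 20.1 against 16.8 and 18.9. Ric8a was at 86.9 CPM against 87.3 and 69.5, Nfkbib at 25.8 against 25.8 and 26.5, and Rinl at 18.9 against 19.2 and 20.6.

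Sirtuins depend on NAD+, and genes that make or use it were read beside them. Of 17 genes of NAD synthesis and nicotinamide metabolism 0 were called at 30M against 6M by edgeR, against 1.96% of all tested genes, and 2 had an unadjusted p under 0.05, against 11.6%, with a median log2 fold change of 0.17 against 0.00 over all tested genes, 12 higher and 5 lower. Qprt, which makes nicotinate mononucleotide in the route from tryptophan, was at 0.896, 0.248 and 0.566 CPM at 6M and 1.37, 2.13 and 2.65 at 30M. Its groups did not overlap, but its level was low (log2 fold change 1.82, SE 0.49, adjusted p = 0.0859), and DESeq2 and limma voom each called it as higher, 1 of 17 against 4.09% and 3.26% of all tested genes. Kynu of the same route was at 2.45 ± 0.654 and 4.32 ± 0.861 CPM (adjusted p = 0.469). Slc25a51, the mitochondrial NAD+ carrier, was at 163 ± 4.98 and 134 ± 13.2 CPM (log2 fold change -0.28, adjusted p = 0.386), with all 30M libraries below all 6M ones. Nmrk2 was at 0.102 ± 0.113 and 0.468 ± 0.446 CPM (adjusted p = 0.524).

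Of the other NAD-consuming enzymes, 17 of 18 genes were tested (Sarm1 did not pass the filter) and 0 were called at 30M against 6M, against 1.96% of all tested genes, with 6 at an unadjusted p under 0.05, against 11.6%, and a median of 0.15 (0.00 over all tested genes). The 4 with the smallest p were mono-ADP-ribosyltransferase family genes, a family of which several members, Parp9 and Parp14 among them, are known as interferon-stimulated. Parp9 was at 49.7, 44.6 and 40.4 CPM at 6M and 93.8, 62.2 and 58.8 at 30M, without overlap (log2 fold change 0.67, SE 0.18, adjusted p = 0.0880). Parp14 was at 80.8 ± 12.4 and 139 ± 46.4 CPM (adjusted p = 0.100), and both were called as higher by DESeq2 and by limma voom (2 of 17 by each, against 4.09% and 3.26% of all tested genes). Parp11 was at 18.2 ± 2.098 and 25.6 ± 3.29 CPM and Parp12 at 60.7 ± 7.98 and 83.9 ± 20.8 CPM (adjusted p = 0.248 and 0.292). The leukocyte marker sum was also highest at 30M, as given above, and its part in these values was not tested. At 30M against 12M 1 of the 17 was called, against 0.712% of all tested genes: Tiparp, a target of the aryl hydrocarbon receptor, was lower at 30M, at 37.9 ± 1.88 CPM against 68.9 ± 18.3 at 12M (adjusted p = 0.0401, log2 fold change -0.86, SE 0.17). That call was lost without any 1 of 6M_201, 6M_202, 6M_203, 12M_207, 12M_208, 20M_221, 30M_216, 30M_218 and 30M_220 (adjusted p up to 0.167), and with limma voom (0.0585).

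The zinc-dependent histone deacetylases, which use no NAD+, gave 0 of 11 called at 30M against 6M and 0 at an unadjusted p under 0.05 (1.96% and 11.6% of all tested genes), with a median of 0.01. Hdac11 was at 19.3 ± 2.77 and 23.8 ± 1.36 CPM, Hdac2 at 93.3 ± 3.43 and 76.6 ± 14.0 CPM, Hdac9 at 9.15 ± 1.38 and 11.02 ± 1.77 CPM and Hdac5 at 76.7 ± 11.4 and 86.4 ± 23.6 CPM (adjusted p = 0.489, 0.570, 0.715 and 0.850). Of 7 regulators of Sirt1 0 were called (0 at an unadjusted p under 0.05, median 0.06). Usp22, a deubiquitinase that stabilises SIRT1, was at 65.6 ± 0.824 and 70.6 ± 3.11 CPM and Ctbp1 at 196 ± 10.96 and 182 ± 1.86 CPM, while Hic1, a repressor of Sirt1, was at 12.3 ± 4.64 and 14.4 ± 2.998 CPM and Rps19bp1, an activator of SIRT1, at 11.1 ± 0.996 and 11.9 ± 0.762 CPM (adjusted p = 0.832, 0.837, 0.888 and 0.907).

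Genes of sirtuin substrates were likewise not called at 30M against 6M. In the nuclear and cytosolic list 14 of 15 were tested and 0 called, and 2 had an unadjusted p under 0.05 (1.96% and 11.6% of all tested genes), with a median of 0.02. Ppargc1a, the coactivator PGC-1α of mitochondrial biogenesis, was at 8.36, 8.17 and 6.63 CPM at 6M and 6.13, 4.02 and 4.91 at 30M. All 30M values were below all 6M values (log2 fold change -0.62, SE 0.21, adjusted p = 0.202). Trp53, which encodes p53, was at 31.1 ± 2.22 and 38.6 ± 6.31 CPM, the sterol receptor gene Nr1h3 at 39.98 ± 6.06 and 50.1 ± 9.06 CPM and Stat3 at 191 ± 9.99 and 233 ± 15.7 CPM (adjusted p = 0.407, 0.511 and 0.528). In the mitochondrial list 17 of 18 were tested and 0 called (1 at an unadjusted p under 0.05, median 0.03). Glutamate dehydrogenase Glud1 was at 172, 174 and 173 CPM at 6M and 215, 233 and 198 at 30M, without overlap (log2 fold change 0.32, SE 0.12, adjusted p = 0.275). Shmt2 was at 19.3 ± 2.36 and 24.97 ± 2.41 CPM, Ppif at 13.1 ± 2.09 and 15.7 ± 4.23 CPM and Dlat at 55.6 ± 1.64 and 50.6 ± 2.60 CPM (adjusted p = 0.438, 0.736 and 0.743). DESeq2 and limma voom called 0 genes of these lists, of the deacetylases and of the Sirt1 regulators at 30M against 6M. Apart from Tiparp, edgeR called 0 genes of the 6 lists in any of the 6 pairs of ages, in the joint test or for the slope. Outside 30M against 6M, DESeq2 called 2 of 17 NAD-consuming enzymes, Parp10 and Tiparp, at 30M against 12M (2.74% of all tested genes), and Parp9 of that list and Glud1 at 30M against 20M (1.73%). Limma voom called 1 of 11 deacetylases, Hdac2, as lower at 20M against 6M (3.31%), and Parp9 at 30M against 20M (1.17%). In the joint test over ages DESeq2 called 3 of 17 NAD-consuming enzymes, Parp9, Parp14 and Tiparp, and Glud1 (4.28%). Limma voom, which called 8.64% of all tested genes there, called 5 of 17 NAD-consuming enzymes, namely these 3, Parp10 and Tnks2, with Hdac2 as 1 of 11 deacetylases, and Glud1.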

How the data were processed

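Per the labels' protocols, RNA was extracted with ISOGEN II, poly-A selected and sequenced in pairs. The authors deposited whole-number read counts per gene, with no scaling. The submitters' processing notes name HISAT2 2.1.0, featureCounts, Trimmomatic 0.38 and FastQC 0.11.7, with GRCm38 (mm10) as build. The strand setting and the annotation release are each not given in the sources used here. Of 55487 identifiers 55227 are in GENCODE M21 (GRCm38), which gave exon lengths and transcript GC content.

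Levels are CPM with TMM scaling, and log2 CPM uses a prior count of 2. All 12 libraries were fitted together in edgeR 4.0.16 (R 4.3.3, quasi-likelihood, robust, filterByExpr by age), with Benjamini-Hochberg adjustment over 18407 genes, and checked on simulated counts. The SE is the log2 fold change over the root of F. Alternatives used DESeq2 1.42.0, limma 3.58.1, other scalings, filters and GC corrections, and left libraries out. Named genes are the 7 sirtuins, of each list the 4 with the smallest p at 30M against 6M and any called gene, and the 2 most like each sirtuin. The members and lists were chosen with earlier results of these data known. An item of the lists is not reported here by name.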

Additional observations from a re-analysis of the deposited data

How the results depend on the processing

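The count of sirtuins called stayed at 0 in 166 of 167 recomputations over 8 tests, the exception being the 1 call, Sirt1, by limma voom in the joint test over ages. Leaving out each library in turn gave a count of 0 to 0 in each test. At 30M against 6M the log2 fold change of Sirt6 was -0.0245 with a term for the 3 libraries that followed gene GC content and -0.0256 without them. That of Sirt7 was -0.0207 with limma voom, -0.0183 with each library's GC trend removed, -0.0340 with the term and -0.0722 without those libraries. With 1 library left out it ranged from -0.1151 to 0.0841 for Sirt2, from -0.0256 to 0.3253 for Sirt6 and from -0.0724 to 0.2032 for Sirt7. None of these values was called, and the cause of the changed signs was not tested. The other 4 sirtuins kept their sign in all 21 alternatives. Over all genes the count called at 30M against 6M ran from 69 to 753, against 361. The same settings for Tiparp were chosen after seeing the data. Intervals cover these libraries only, and 3 per age limit what can be detected. No paired analysis was possible because the 12 replicate numbers all differ.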
